A study of Homo sapiens with 12 samples.

Results

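The mitochondrial ribosomal protein genes are the nuclear genes, named MRPL or MRPS, that encode the proteins of the ribosome inside mitochondria. Members were the rows of the deposited expression table whose gene name was MRPL or MRPS followed by a number and at most 1 letter, with a mean of at least 1 TPM (the share of a library's transcripts, corrected for transcript length and scaled to a fixed total per library) over the 12 libraries. All 78 rows with such a name met that level, out of 59324 rows in the table and 13937 genes at 1 TPM or more. Of the 78, 51 encode proteins of the large subunit and 26 proteins of the small subunit, and MRPS36 is known as a component of the 2-oxoglutarate dehydrogenase complex in place of the assembled ribosome. MRPS30 and MRPS18A, although named for the small subunit, are large subunit proteins and were counted there.

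RNA sequencing was made of MDA-MB-468, an established human triple-negative breast cancer cell line. The 4 groups of 3 libraries were cells given SAHA (vorinostat, an inhibitor of histone deacetylases) at 10 µM for 12 h, cells given sonidegib (an inhibitor of Smoothened, the membrane protein that passes on the Hedgehog signal) at 10 µM as a pretreatment of 72 h, cells given both drugs, and control cells. Both drugs were used in 1 cell line, so every group shares its genotype. The labels do not state the vehicle of the control cells, how long they were kept, whether the replicates came from separate cultures or whether the groups were handled on one day, so each p-value reflects variation among these libraries alone, and that variation may be technical.

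Human mitochondria translate a small set of mRNAs from their own DNA, which code for core subunits of the respiratory chain and the ATP synthase. Their ribosome joins 2 ribosomal RNAs made in the organelle, MT-RNR2 (16S) in the large subunit and MT-RNR1 (12S) in the small subunit, with proteins that are all encoded in the nucleus, translated in the cytosol and imported. Some of these proteins descend from bacterial ribosomal proteins and others exist in mitochondria alone, and the mitochondrial ribosome holds more protein and less RNA than the bacterial one.

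The genes are spread over 21 chromosomes with at most 8 members on any of them, and many share short sequences around their start sites. RefSeq gave a promoter window, from 250 bases before the transcription start to 50 bases after it on GRCh38.p14, for 69 of the 78 genes. It gave none for MRPL10, MRPL13, MRPL15, MRPL2, MRPL21, MRPL23, MRPL35, MRPS28 and MRPS36. Searched on both strands, CCGGAAG, the core bound by ETS factors such as GABPA, was present in 29 of the 69 windows (42.0%), against 14.2% of all 15812 windows of that length. AAGATGGC, the core bound by YY1, was present in 20 (29%), against 3.91% of all windows, and in 15 of the 69 (21.7%) it lay after the start site, against 2.49% of all windows. At least 1 of these 2 cores was found in 41 windows (59.4%), against 17.2% of all windows, and both in 8. The NRF1 palindrome was in 8 windows (11.6%, against 8.59%), a shorter NRF1 core, GCGCATGC, which can overlap the palindrome, in 6 (8.7%, against 4.26%), and the E-box CACGTG, which MYC can bind, in 6 (8.7%, against 8.87%). Every ETS and YY1 core is printed below for the members among the 5 largest rises or falls in any comparison against control, with 10 bases on either side and the core in capitals, read 5′ to 3′ on the strand of the gene. CTTCCGG is CCGGAAG read on the other strand.
MRPL16, chr11:59810768-59810794, minus strand: gtgaacacaaCTTCCGGccccactgag
MRPL20, chr1:1407321-1407347, minus strand: gaccttcgccCCGGAAGtatcgcaggg
MRPL20, chr1:1407298-1407324, minus strand: aggggctgacCCGGAAGcgctcgtgac
MRPL27, chr17:50373220-50373246, minus strand: cacgcagggcCCGGAAGtagatctcct
MRPL27, chr17:50373176-50373202, minus strand: cttttcgagaCCGGAAGtgagtgatcg
MRPL3, chr3:131502987-131503013, minus strand: gtaaaacgcaCCGGAAGtgggtccggc
MRPL33, chr2:27771701-27771727, plus strand: gggccgtgccCCGGAAGcagttgttgt
MRPL54, chr19:3762651-3762677, plus strand: ccactgacgtCTTCCGGaaacgtgcac
MRPL20, chr1:1407261-1407288, minus strand: cgacccgggcAAGATGGCagcggcgctg
MRPL42, chr12:93467512-93467539, plus strand: ggattgaaacAAGATGGCgggttcgtgg
MRPS18B, chr6:30617853-30617880, plus strand: ggcgtacgtcAAGATGGCggcgtctgta
MRPS27, chr5:72320207-72320234, minus strand: ggtacgctccAAGATGGCtgcctccata
MRPL20 holds both cores. The other members among those largest changes that have a window (MRPL1, MRPL14, MRPL18, MRPL41, MRPL44, MRPL55 and MRPS14) hold neither. Since these genes were chosen for the size of their changes, nothing follows from which core they hold. A match describes letters in a window and not bound protein, and the changes of members with and without each core are set side by side further on.

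The columns summed to between 999999 and 1000001 TPM, so the number of reads behind a value is unknown. Within a group, pairs of libraries had correlations of 0.967 to 0.980 over the tested genes as log2(TPM + 1). Epithelial genes were high (EGFR 516 to 678 TPM, KRT19 2026 to 5128 TPM), but of the 7 on the list 3 rose and 2 fell with SAHA, 0 rose and 5 fell with sonidegib (median -0.83), and 1 rose and 5 fell with the combination (median -0.81). KRT8, for example, averaged 2351 TPM with SAHA, 865 TPM with sonidegib and 1311 TPM with the combination, against 1864 TPM in control cells. Of the receptors that are low in triple-negative cells, PGR was listed at 0 and ESR1 at no more than 1.76 TPM in any library, while ERBB2 averaged 3.94 TPM with SAHA, 24.4 TPM with sonidegib and 6.48 TPM with the combination, against 10.4 TPM in control cells. Of the 7 leukocyte markers, CD14 held nearly all of the summed level, which was 310 to 346 TPM with SAHA, 312 to 323 with sonidegib, 217 to 232 with the combination and 301 to 326 in control cells, while PTPRC and CD3E did not pass 0.09 TPM. CD68, of the same list, rose to 10.2, 11.3 and 9.51 TPM with SAHA, sonidegib and the combination, against 4.21 TPM in control cells. The 9 fibroblast and endothelial markers summed to 11 to 14, 5.21 to 8.16, 10 to 10.4 and 3.51 to 4.82 TPM with SAHA, sonidegib, the combination and in control cells, mostly from COL1A1. The 17 genes for the 5S RNA of the cytosolic ribosome had 0 TPM in the 6 libraries without sonidegib and summed to 1488 to 12641 TPM in the 6 with it. The part of these marker changes and of the 5S split in the values below was not tested.

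Together the 78 genes made up 0.694% ± 0.0106 of all TPM under SAHA, 0.599% ± 0.0168 under sonidegib and 0.608% ± 0.036 under the combination, against 0.850% ± 0.0219 in control cells (SD, n = 3 each). In the single libraries their sum was 6818, 6998 and 7006 TPM with SAHA, 6116, 5802 and 6062 TPM with sonidegib and 5682, 6171 and 6384 TPM with the combination, against 8274, 8711 and 8504 TPM in control cells. Every treated library lay below every control library, and the sonidegib and combination libraries overlapped. The median member was at 60.2 ± 2.26 TPM with SAHA, 54.1 ± 0.614 TPM with sonidegib and 55.8 ± 4.07 TPM with the combination, against 79.9 ± 2.12 TPM in control cells (SD, n = 3 each). Since a TPM is a share, the sum was also taken with TPM recomputed over the nuclear protein-coding genes alone. On that scale the 78 genes held 8419 ± 88.7 under SAHA, 7226 ± 253 under sonidegib and 7457 ± 294 under the combination, against 9922 ± 265 in control cells (SD, n = 3 each). In bulk RNA, a lower level in each cell and a larger share of cells with a low level cannot be told apart.

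The subunit sums fell to different extents. The large subunit genes summed to 5040 ± 79.5 TPM with SAHA, 4026 ± 133 TPM with sonidegib and 4223 ± 286 TPM with the combination, against 5958 ± 140 TPM in control cells (SD, n = 3 each). The small subunit genes summed to 1877 ± 36.3 TPM with SAHA, 1951 ± 35.8 TPM with sonidegib and 1840 ± 72.7 TPM with the combination, against 2516 ± 78.9 TPM in control cells (SD, n = 3 each). The ratio of large to small was therefore 2.69, 2.73 and 2.64 with SAHA, above the 2.4, 2.36 and 2.35 of control cells, and 2.10, 2.03 and 2.06 with sonidegib, below them. With the combination it was 2.22, 2.32 and 2.34, between the ratios of the single drugs and below all 3 control libraries. A sum follows its most abundant genes, and no test of the ratio was made.

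**Figure D1:**
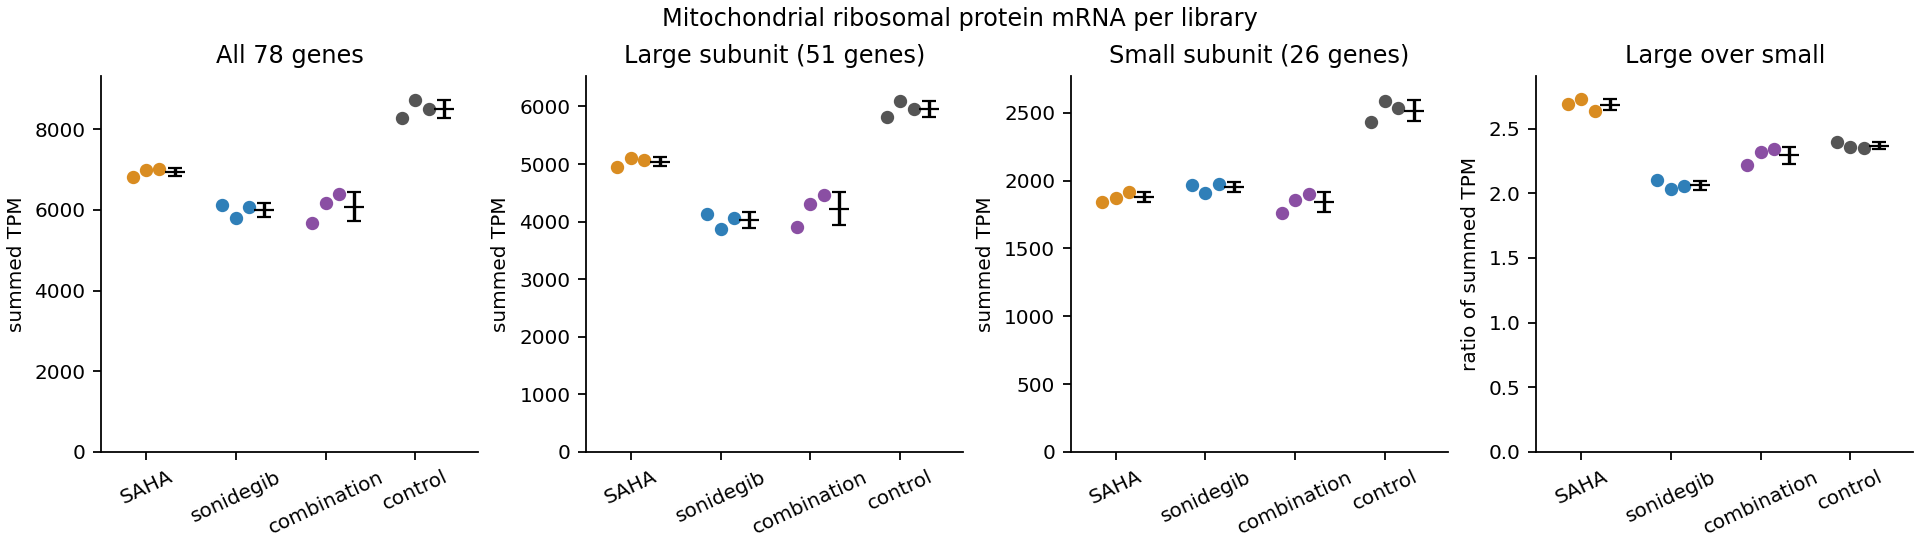
Summed TPM of all 78 genes, of the 51 large subunit and 26 small subunit genes, and the ratio of large to small, with 1 point per library in the SAHA, sonidegib, combination and control groups, and bars for the mean ± SD (n = 3). Control sums (8274 to 8711 TPM for all genes) lie above every treated library, and the ratio is highest with SAHA (2.64 to 2.73) and lowest with sonidegib (2.03 to 2.10).

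Gene by gene, each treatment lowered most of the family. Changes were tested as differences of log2(TPM + 1) with limma over the 13937 genes, and a gene was called at a Benjamini-Hochberg adjusted p under 0.05. On this scale the change of a gene at a low level is understated. With SAHA, 50 of the 78 members fell and 8 rose, where 26.9% of all tested genes fell and 31.8% rose, and the members' median change was -0.44, against 0.05 for all genes. With sonidegib, 61 fell and 3 rose, where 29.2% of all tested genes fell and 26.1% rose, with a median of -0.46 for the members and -0.02 for all genes. With the combination, 56 fell and 4 rose, where 34% of all tested genes fell and 29.7% rose, with medians of -0.46 and -0.02. These 3 comparisons share the control libraries, so their likeness to each other is not a result.

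The falls were moderate in size. At least 2-fold lower levels were called for 9 members under SAHA, 10 under sonidegib and 12 under the combination, and no member rose 2-fold in any of these comparisons. Of the 13937 tested genes, 800, 707 and 1444 were called at least 2-fold lower, and 1213, 752 and 1089 at least 2-fold higher, in the same order. The interquartile range of the members' log2 changes was -0.71 to -0.07 with SAHA, -0.79 to -0.23 with sonidegib and -0.81 to -0.11 with the combination. Under 4 other scalings of the columns the falls numbered 46 to 54 with SAHA, 50 to 58 with sonidegib and 49 to 54 with the combination. The rises were less stable, with 5 to 10, 3 to 7 and 5 to 15 members under the same scalings.

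**Figure D2:**
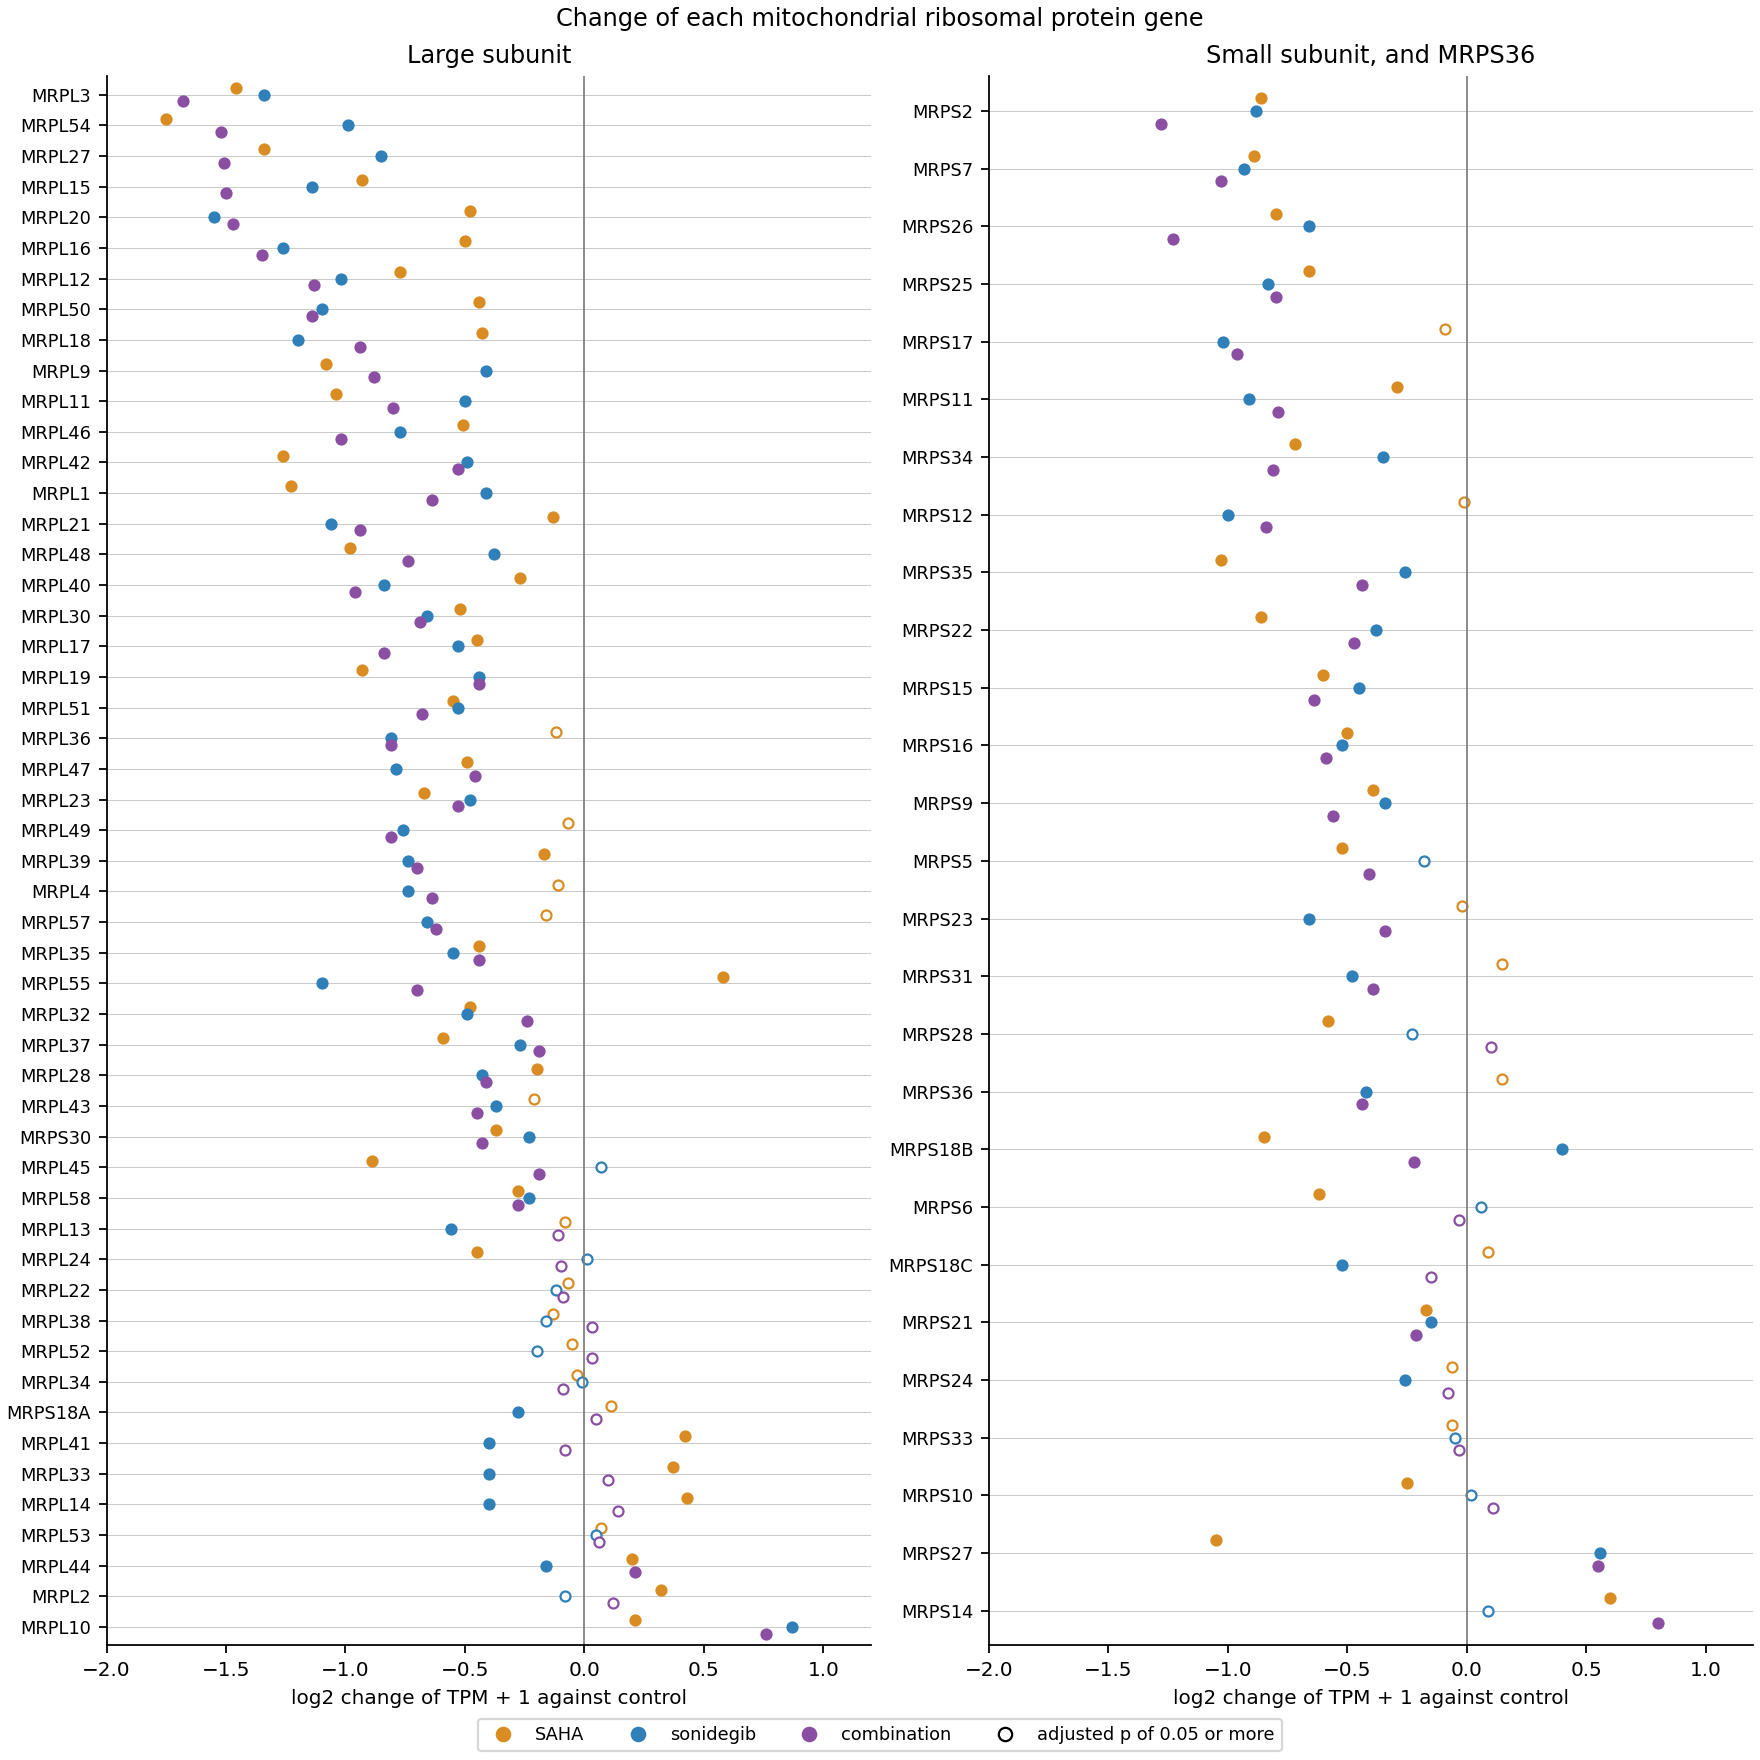
Log2 change of TPM + 1 against control for each of the 78 genes (rows, large subunit left, small subunit and MRPS36 right), with 1 dot each for SAHA, sonidegib and the combination, filled where the adjusted p was under 0.05 and open where it was not. Most dots lie left of 0, MRPL3 is far to the left with each treatment (-1.46, -1.34 and -1.68), and the furthest dots to the right are those of MRPL10 with sonidegib (0.87) and MRPS14 with the combination (0.80).

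MRPL3, the counterpart of bacterial uL3 beside the peptidyl transferase centre, was one of the 5 largest falls with each treatment. The gene (ENSG00000114686, chr3:131462212-131502983 on GRCh38) had 89.1, 79.8 and 92.1 TPM with SAHA, 94.3, 95.2 and 95.0 TPM with sonidegib and 70.4, 73.5 and 79.6 TPM with the combination, against 250.4, 238 and 235 TPM in control cells. All treated libraries were below 100 TPM and all control libraries above 230 TPM, so no groups overlapped. The log2 change was -1.46 ± 0.062 (SE, adjusted p = 6.92e-09) with SAHA, -1.34 ± 0.062 (SE, adjusted p = 2.69e-08) with sonidegib, and -1.68 ± 0.062 (SE, adjusted p = 1.8e-09) with the combination. A processed copy of MRPL3 is named in the annotation, and reads may be divided between the gene and that copy.

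MRPL54, a mitochondrion-specific protein near the base of the stalk that recruits translation factors, had the largest fall with SAHA. It (chr19:3762664-3768575) had 17.5, 19.2 and 18.2 TPM with SAHA, 35.1, 30.6 and 29.4 TPM with sonidegib and 23.3, 23.8 and 18.0 TPM with the combination, against 56.4, 68.6 and 66.9 TPM in control cells. The SAHA and combination libraries overlapped each other, and all treated libraries lay under the control libraries. The log2 change was -1.75 ± 0.11 (SE, adjusted p = 1.64e-07) under SAHA, -0.99 under sonidegib and -1.52 under the combination. MRPL27, the counterpart of bacterial bL27, whose end reaches the peptidyl transferase centre, had 16.6, 21.7 and 19.3 TPM with SAHA, 29.9, 23.7 and 28.4 TPM with sonidegib and 15.9, 16 and 18.7 TPM with the combination, against 45.6, 52.5 and 51.3 TPM in control cells. Its log2 change was -1.34 ± 0.11 (SE, adjusted p = 1.44e-06) under SAHA, -0.85 under sonidegib and -1.51 under the combination, with no treated library as high as a control library.

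**Figure D3:**
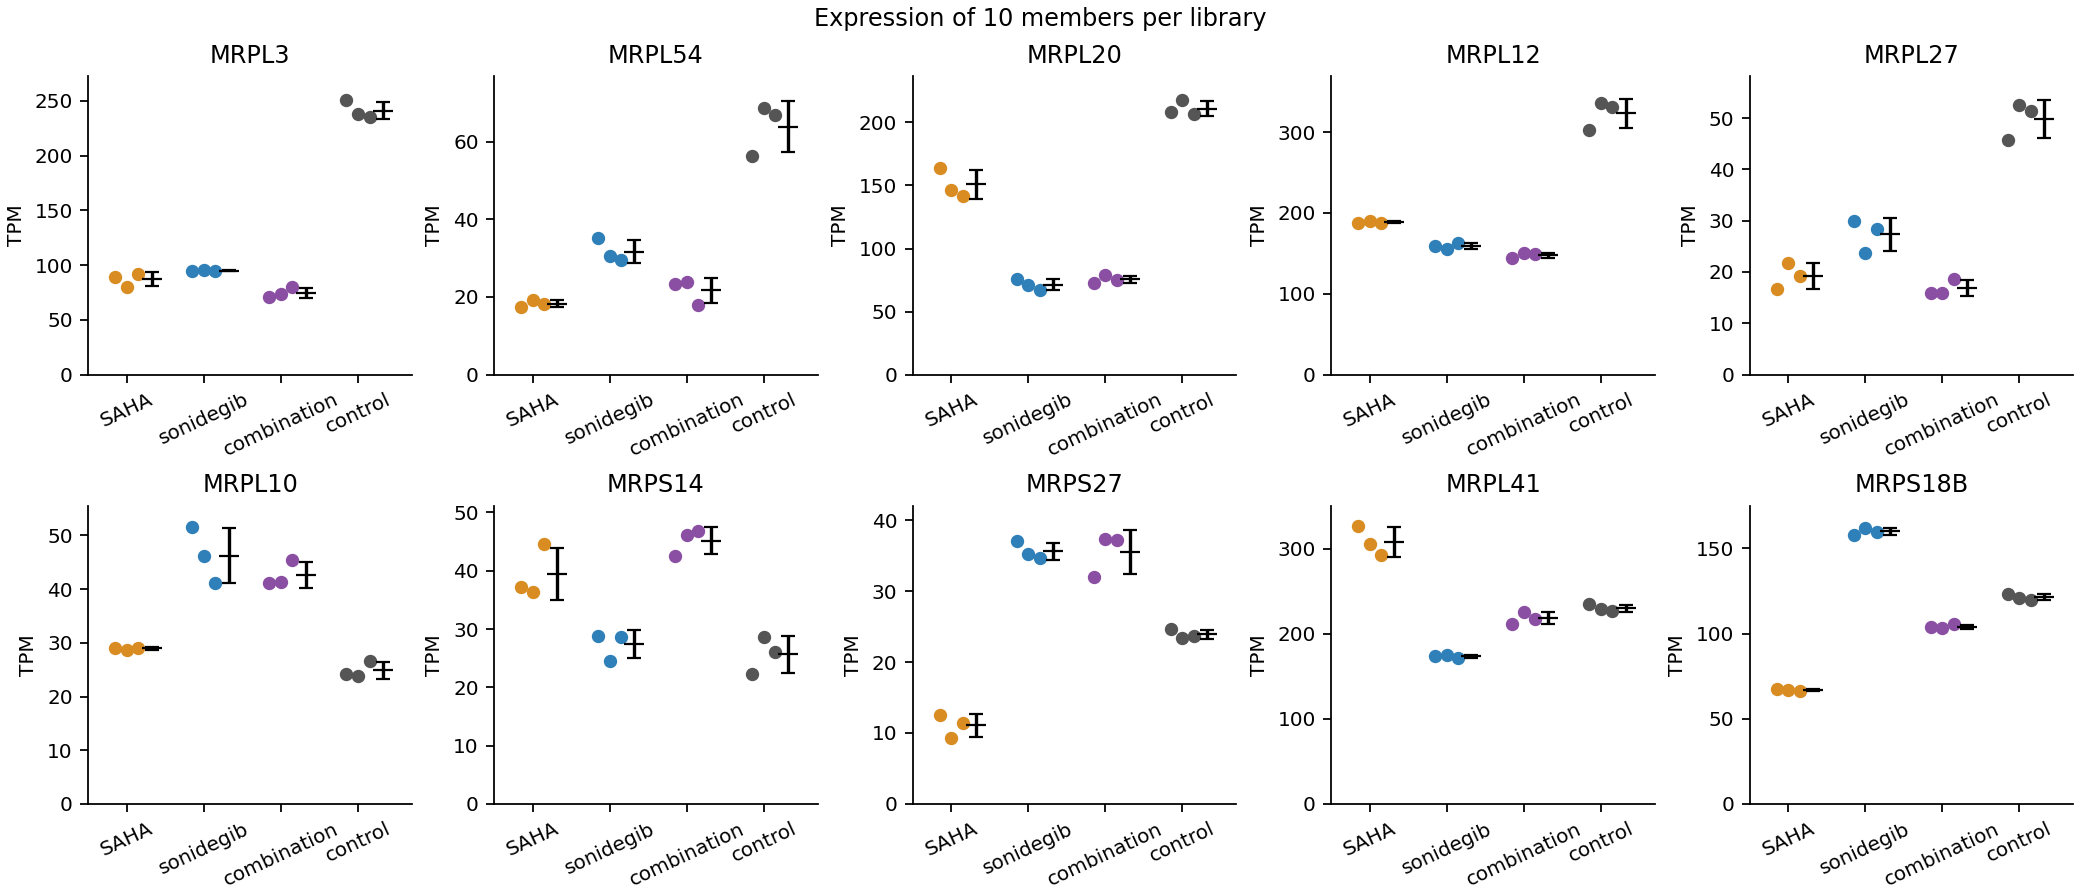
TPM of 10 members in every library of the SAHA, sonidegib, combination and control groups, with bars for the mean ± SD (n = 3). The upper row holds falls, such as MRPL3 with 79.8 to 92.1 TPM with SAHA and 235 to 250.4 TPM in control cells, and the lower row holds members that rose in at least 1 comparison, such as MRPS27 with 34.6 to 37.0 TPM with sonidegib and 23.4 to 24.6 TPM in control cells.

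Another set of large subunit genes was lowest in the libraries with sonidegib. MRPL20, the counterpart of bL20, which is needed to assemble the large subunit in bacteria, had 164, 147 and 142 TPM with SAHA, 75.6, 71.1 and 67.0 TPM with sonidegib and 72.9, 78.7 and 74.7 TPM with the combination, against 209, 218 and 206 TPM in control cells. Its log2 change of -1.55 ± 0.065 (SE, adjusted p = 1.32e-08) was the largest of the family with sonidegib, against -0.48 ± 0.065 (SE, adjusted p = 5.54e-05) with SAHA. The combination was at the level of sonidegib alone and below SAHA alone, with a log2 change of -0.99 ± 0.065 (SE, adjusted p = 3.97e-07) against SAHA and 0.08 ± 0.065 (SE, adjusted p = 0.348) against sonidegib. MRPL20 shares 139 exon bases with AL391244.1 on the opposite strand, a transcript at 7.94 TPM on average.

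MRPL16, the counterpart of uL16, which lines the path of the tRNA, had 62.2, 58.8 and 64.2 TPM with SAHA, 38.9, 32 and 37.9 TPM with sonidegib and 30.4, 33.0 and 38.7 TPM with the combination, against 77.9, 93.3 and 92.7 TPM in control cells. The libraries with sonidegib were below those with SAHA, and both were below the control libraries, with log2 changes of -0.50 for SAHA, -1.26 ± 0.1 (SE, adjusted p = 1.7e-06) for sonidegib, and -1.35 for the combination. MRPL18, the counterpart of uL18 in the central protuberance, which binds 5S ribosomal RNA in bacteria, had 63.2, 61.8 and 74.8 TPM with SAHA, 37.5, 36.6 and 41.9 TPM with sonidegib and 39.9, 48.5 and 51.8 TPM with the combination, against 87.7, 91.9 and 90.1 TPM in control cells. The libraries with sonidegib, alone or combined, were lowest and control libraries highest. Its log2 change was -0.43 with SAHA, -1.20 ± 0.1 (SE, adjusted p = 1.75e-06) with sonidegib, and -0.94 with the combination. MRPL15, the counterpart of uL15, had 42.6, 40.0 and 42.5 TPM with SAHA, 34.5, 35.5 and 37.4 TPM with sonidegib and 29.9, 23.3 and 30.7 TPM with the combination, against 79.5, 78.5 and 83.0 TPM in control cells. No groups overlapped. Its level fell furthest with the combination, by 1.5 on the log2 scale (adjusted p = 6.23e-08), and was lower there than with SAHA (log2 change -0.57, adjusted p = 0.00026) and than with sonidegib (log2 change -0.35, adjusted p = 0.00861).

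MRPL12, the stalk protein that binds elongation factors and has been reported to bind the mitochondrial RNA polymerase, had 188, 190.3 and 188 TPM with SAHA, 159.7, 155 and 163 TPM with sonidegib and 144, 150.0 and 149 TPM with the combination, against 303, 337 and 331 TPM in control cells. The groups with sonidegib were lower than SAHA alone, and control cells were highest, with log2 changes of -0.77 ± 0.047 (SE, adjusted p = 9.41e-08) for SAHA, -1.02 ± 0.047 (SE, adjusted p = 2.58e-08) for sonidegib, and -1.13 ± 0.047 (SE, adjusted p = 4.25e-09) for the combination. MRPL12 followed the mean of the other members more closely than any other gene of the family (Pearson r of 0.98 over the 12 libraries, which fall into the 4 groups). AC139530.2, a gene at 3.15 TPM on average, shares 701 exon bases with it on the same strand.

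In the small subunit, MRPS12 and MRPS17 were lower in the libraries with sonidegib while their changes with SAHA did not pass the test. MRPS12, the counterpart of uS12 at the decoding centre, had 144, 158 and 143 TPM with SAHA, 76.7, 74.3 and 71.8 TPM with sonidegib and 81.2, 80.2 and 87.6 TPM with the combination, against 146, 156 and 146 TPM in control cells. Its log2 change was -1.0 ± 0.057 (SE, adjusted p = 1.07e-07) with sonidegib and -0.84 ± 0.057 (SE, adjusted p = 1.79e-07) with the combination, and -0.01 ± 0.057 (SE, adjusted p = 0.865) with SAHA, where the libraries overlapped with control and the sign turned under another scaling and without any of 3 single libraries. MRPS12 shares 349 exon bases with SARS2, the mitochondrial seryl-tRNA synthetase gene on the opposite strand, which averaged 14.1 TPM and fell with SAHA by 1.96 on the log2 scale. MRPS17, the counterpart of uS17, had 61.7, 65.5 and 64.0 TPM with SAHA, 34.9, 31.1 and 33.1 TPM with sonidegib and 30.3, 34.6 and 38.5 TPM with the combination, against 64.3, 72.5 and 67.2 TPM in control cells. Its libraries with sonidegib lay at about the same level with and without SAHA, below those of SAHA alone and of control cells, which overlapped. The log2 change of MRPS17 was -1.02 ± 0.083 (SE, adjusted p = 1.52e-06) with sonidegib and -0.09 ± 0.083 (SE, adjusted p = 0.378) with SAHA. It shares 471 exon bases with AC092647.5 on the same strand, which averaged 149 TPM and changed by -1.63 with sonidegib and -1.21 with the combination. It also shares 112 exon bases with NIPSNAP2 on the same strand, also at 149 TPM on average, which changed by -0.70 under SAHA, 0.67 under sonidegib and 0.41 under the combination. How reads were divided among these genes is uncertain.

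A further set was lowest with SAHA alone. MRPL42, a mitochondrion-specific large subunit protein, had 13.3, 16.3 and 20.9 TPM with SAHA, 24.1, 31.8 and 31.8 TPM with sonidegib and 26.3, 25.6 and 33.1 TPM with the combination, against 43.0, 36.9 and 43.3 TPM in control cells. The SAHA libraries were the lowest, with a log2 change of -1.26 ± 0.16 (SE, adjusted p = 3.99e-05), against -0.49 ± 0.16 (SE, adjusted p = 0.0238) with sonidegib. The level with the combination was above that with SAHA alone (log2 change 0.73 ± 0.16 SE, adjusted p = 0.00274). The annotation names 4 processed copies of MRPL42, and reads may be divided between the gene and those copies. MRPL1, the counterpart of uL1 in the mobile stalk beside the exit site of the tRNA, had 8.19, 7.43 and 8.82 TPM with SAHA, 14.1, 14.5 and 16.9 TPM with sonidegib and 10.7, 12.5 and 15.4 TPM with the combination, against 19.7, 22.9 and 18.8 TPM in control cells. It fell by 1.23 on the log2 scale with SAHA (adjusted p = 6.81e-06), and it too was higher with the combination than with SAHA (log2 change 0.59 ± 0.13 SE, adjusted p = 0.00228). MRPL9, the counterpart of bL9, had 54.5, 49.6 and 58.3 TPM with SAHA, 83.1, 87.8 and 87.6 TPM with sonidegib and 60.0, 59.6 and 66.3 TPM with the combination, against 117, 117 and 111 TPM in control cells. The SAHA libraries were lowest and all treated libraries lay below the control libraries. It fell by 1.08 on the log2 scale with SAHA, by 0.41 with sonidegib and by 0.88 with the combination, with adjusted p-values of 1.04e-07, 0.000269 and 4e-07.

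MRPL45 lies at the exit of the polypeptide tunnel and anchors the ribosome to the inner membrane. It had 22.6, 20.1 and 21.4 TPM with SAHA, 42.6, 42.1 and 42.9 TPM with sonidegib and 32.6, 34.9 and 39.5 TPM with the combination, against 38.9, 42.1 and 40.8 TPM in control cells. The SAHA libraries stood below all others, while combination and control libraries overlapped and sonidegib libraries lay close to them. Its log2 change was -0.89 ± 0.073 (SE, adjusted p = 1e-06) with SAHA, 0.07 ± 0.073 (SE, adjusted p = 0.47) with sonidegib, and -0.19 ± 0.073 (SE, adjusted p = 0.042) with the combination, a call that was lost under several other settings. MRPS27, a small subunit protein of the pentatricopeptide repeat family, changed in opposite directions with the drugs and had 12.5, 9.30 and 11.4 TPM with SAHA, 37.0, 35.2 and 34.6 TPM with sonidegib and 32, 37.3 and 37.2 TPM with the combination, against 24.6, 23.4 and 23.7 TPM in control cells. No SAHA library reached a control library and no library with sonidegib was as low as one. The log2 change was -1.05 ± 0.096 (SE, adjusted p = 2.61e-06) with SAHA, 0.56 ± 0.096 (SE, adjusted p = 0.000478) with sonidegib, and 0.55 ± 0.096 (SE, adjusted p = 0.000382) with the combination. Against SAHA alone the combination was higher by 1.60 ± 0.096 (SE, adjusted p = 2.15e-07), the largest such rise in the family. PTCD2, at 2.42 TPM on average, shares 190 exon bases with MRPS27 on the opposite strand.

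MRPS26, a mitochondrion-specific small subunit protein, was lower with the combination than with either drug. It had 77.9, 83.9 and 80.1 TPM with SAHA, 94.7, 78.8 and 95.1 TPM with sonidegib and 50.6, 64.4 and 65.3 TPM with the combination, against 129, 145 and 151 TPM in control cells. The combination libraries lay under those of SAHA (log2 change -0.43 ± 0.1 SE, adjusted p = 0.00534) and those of sonidegib (log2 change -0.57 ± 0.1 SE, adjusted p = 0.0013). Against control cells its log2 change was -0.80 under SAHA, -0.66 under sonidegib and -1.23 under the combination. MRPS28, which is related to bacterial S1, had 12.0, 11.5 and 13.7 TPM with SAHA, against 15.6, 22.8 and 19.2 TPM in control cells, a log2 change of -0.58 ± 0.16 (SE, adjusted p = 0.01). Its changes with sonidegib (-0.23, adjusted p = 0.264) and under both drugs (0.10, adjusted p = 0.62) did not pass the test, and 650 of its exon bases are shared with AC036214.3 on the same strand. AC036214.3 averaged 9.83 TPM and changed by -1.22 with SAHA, -0.49 (not called) with sonidegib and -0.85 with the combination. How reads were divided between MRPS28 and AC036214.3 is uncertain.

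Few members rose. MRPL10, the counterpart of uL10, on which the stalk proteins are mounted, had 29.1, 28.7 and 29.1 TPM with SAHA, 51.5, 46.2 and 41.1 TPM with sonidegib and 41.2, 41.3 and 45.5 TPM with the combination, against 24.1, 23.8 and 26.7 TPM in control cells. Libraries with sonidegib were the highest and overlapped with and without SAHA, and SAHA libraries stood just above the control libraries. Its log2 change was 0.87 ± 0.081 (SE, adjusted p = 4.35e-06) with sonidegib and 0.76 ± 0.081 (SE, adjusted p = 8.06e-06) with the combination. With SAHA it was 0.21 ± 0.081 (SE, adjusted p = 0.0407), a call lost under several other settings and without any of 7 single libraries. The stalk proper thus held a rise of MRPL10 beside falls of MRPL12 and MRPL54, and MRPL53, another of its neighbours, changed by 0.07, 0.05 and 0.06 with SAHA, sonidegib and the combination, none of which passed the test.

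MRPS14, the counterpart of uS14 in the head of the small subunit, had 37.2, 36.4 and 44.6 TPM with SAHA, 28.8, 24.6 and 28.7 TPM with sonidegib and 42.5, 46.1 and 46.8 TPM with the combination, against 22.3, 28.6 and 26.1 TPM in control cells. Libraries with SAHA, alone or combined, were above the sonidegib and control libraries, which overlapped. The log2 change was 0.60 ± 0.11 (SE, adjusted p = 0.000438) with SAHA, 0.09 ± 0.11 (SE, adjusted p = 0.488) with sonidegib, and 0.80 ± 0.11 (SE, adjusted p = 4.38e-05) with the combination. MRPS14 shares 351 exon bases with CACYBP on the opposite strand. CACYBP averaged 292 TPM, far above MRPS14, and changed by 0.22 (not called) with SAHA, by -0.78 with sonidegib and by -0.65 with the combination. Whether counting used strand is not given in the sources used here.

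Other members that rose with SAHA were MRPL55, MRPL41, MRPL14, MRPL33, MRPL44 and MRPL2. Their values with sonidegib are set beside it, although both comparisons share the control libraries. MRPL55, the counterpart of bL31, had 162, 201 and 161 TPM with SAHA, 56.5, 53.3 and 51.2 TPM with sonidegib and 64.8, 72.7 and 75.7 TPM with the combination, against 119.6, 114 and 115 TPM in control cells. The SAHA libraries were above control cells and those with sonidegib, alone or combined, were below them. Its log2 change was 0.58 ± 0.086 (SE, adjusted p = 0.00014) with SAHA and -1.10 ± 0.086 (SE, adjusted p = 1.11e-06) with sonidegib, and the combination was far below SAHA alone (-1.28 ± 0.086 SE, adjusted p = 5.11e-07). MRPL41, a mitochondrion-specific protein that has been linked to p53 and cell death, had 326, 305 and 292 TPM with SAHA, 174, 175 and 172 TPM with sonidegib and 211, 225 and 218 TPM with the combination, against 235, 229 and 226 TPM in control cells. The SAHA libraries were high, the sonidegib libraries low, and no group overlapped with control cells. It changed by 0.42 ± 0.047 (SE, adjusted p = 1.37e-05) with SAHA and -0.40 ± 0.047 (SE, adjusted p = 2.29e-05) with sonidegib, while the combination was near the control level (-0.08 ± 0.047 SE, adjusted p = 0.175) and its sign there turned under other scalings.

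MRPL14, to which the assembly factor MALSU1 binds, had 161, 169.9 and 169 TPM with SAHA, 102, 79.5 and 101 TPM with sonidegib and 113, 148 and 151 TPM with the combination, against 110.3, 136 and 126 TPM in control cells. The SAHA libraries lay above the control libraries and the sonidegib libraries below them, while combination and control overlapped. The log2 change was 0.43 ± 0.12 (SE, adjusted p = 0.0116) with SAHA, which did not pass without control replicate 1 (adjusted p = 0.0517), and -0.40 ± 0.12 (SE, adjusted p = 0.0183) with sonidegib. MRPL33, the counterpart of bL33, had 339, 343 and 380.2 TPM with SAHA, 221, 177 and 225 TPM with sonidegib and 238, 321 and 326 TPM with the combination, against 255, 286 and 279 TPM in control cells. Here too SAHA libraries were high, sonidegib libraries low, and the combination overlapped with control cells. Its change of 0.37 ± 0.12 (SE, adjusted p = 0.0211) with SAHA did not pass without control replicate 1 (adjusted p = 0.0738), without SAHA replicate 3 (adjusted p = 0.0752) or with no filter on low values (adjusted p = 0.0523), and that with sonidegib (-0.40 ± 0.12 SE, adjusted p = 0.0165) did not pass without control replicate 2, without sonidegib replicate 2 or under quantile normalization. MRPL33 shares 324 exon bases with BABAM2 on the same strand, at 38 TPM on average. MRPL44, which carries a fold like that of ribonuclease III and whose variants are known in cardiomyopathy, had 36.3, 36.1 and 38.8 TPM with SAHA, 28.9, 27.2 and 29.5 TPM with sonidegib and 35.6, 37.2 and 39.0 TPM with the combination, against 31.1, 33.6 and 31.3 TPM in control cells. The libraries with SAHA, alone or combined, overlapped each other above the control libraries. It changed by 0.20 with SAHA (adjusted p = 0.0119), by -0.16 with sonidegib (adjusted p = 0.0385) and by 0.21 with the combination (adjusted p = 0.00896). The change with SAHA did not pass under median-of-ratios scaling (0.12, adjusted p = 0.124), and that with sonidegib did not pass under several scalings and without several single libraries. MRPL2, the counterpart of uL2, rose with SAHA too, by 0.32 ± 0.069 (SE, adjusted p = 0.00175).

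The most abundant members, which carry much of the sums above, did not all follow the family with SAHA. MRPL4, the counterpart of uL4 at the exit tunnel, had 423, 473 and 436 TPM with SAHA, 301, 265 and 290.3 TPM with sonidegib and 278, 322 and 323 TPM with the combination, against 457, 492 and 485 TPM in control cells. Libraries with sonidegib were low, and SAHA libraries overlapped with control cells. Its change did not pass with SAHA (-0.11 ± 0.072 SE, adjusted p = 0.221), and it fell with sonidegib (-0.74 ± 0.072 SE, adjusted p = 5.47e-06) and under both drugs (-0.64 ± 0.072 SE, adjusted p = 1.17e-05). MRPS24, the counterpart of uS3 at the entry of the mRNA, had 355, 383 and 369 TPM with SAHA, 326, 326 and 308 TPM with sonidegib and 361, 365 and 362 TPM with the combination, against 371, 395 and 385 TPM in control cells. The sonidegib libraries were the lowest, and SAHA and control libraries overlapped. Of its changes against control cells only that with sonidegib passed the test (-0.26 ± 0.043 SE, adjusted p = 0.00033), and it was lost under quantile normalization. MRPS15, the counterpart of uS15, had 205, 195 and 212 TPM with SAHA, 226, 221 and 234 TPM with sonidegib and 197, 201 and 199 TPM with the combination, against 309, 315 and 308 TPM in control cells. It was lower with each treatment, with no overlap with control cells, and its log2 changes were -0.60, -0.45 and -0.64 with SAHA, sonidegib and the combination (adjusted p = 2.79e-07, 4.03e-06 and 1.36e-07). At the other end, MRPL50 was the least abundant member, at 4.12 TPM on average.

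The 3 MRPS18 genes encode related proteins that occupy different places, MRPS18A in the large subunit and MRPS18B and MRPS18C in the small subunit, and they did not move together. MRPS18B had 67.3, 67.0 and 66.1 TPM with SAHA, 158, 162 and 159.8 TPM with sonidegib and 104, 103 and 105 TPM with the combination, against 123, 121 and 119.8 TPM in control cells. The order was sonidegib, control, combination and SAHA from high to low, with log2 changes of -0.85 ± 0.038 (SE, adjusted p = 9.21e-09) for SAHA, 0.40 ± 0.038 (SE, adjusted p = 4.95e-06) for sonidegib, and -0.22 ± 0.038 (SE, adjusted p = 0.000326) for the combination, which did not pass under quantile normalization (-0.02, adjusted p = 0.731). MRPS18A had 122, 126 and 120.3 TPM with SAHA, 99.3, 90.1 and 91.2 TPM with sonidegib and 112, 113 and 130.3 TPM with the combination, against 117, 114 and 111 TPM in control cells. The sonidegib libraries were the lowest, and combination and control libraries overlapped. It fell with sonidegib (-0.28 ± 0.064 SE, adjusted p = 0.00289), a call lost under quantile normalization, and its changes with SAHA (0.11, adjusted p = 0.164) and under both drugs (0.05, adjusted p = 0.515) did not pass. MRPS18C had 46.8, 45.1 and 50.6 TPM with SAHA, 28.1, 30.7 and 33.8 TPM with sonidegib and 38.0, 37.6 and 44.4 TPM with the combination, against 44.6, 42.3 and 46.5 TPM in control cells. Again the sonidegib libraries were the lowest, and SAHA and control libraries overlapped. It fell with sonidegib (-0.52 ± 0.084 SE, adjusted p = 0.000319), with changes of 0.09 with SAHA and -0.15 with the combination that did not pass. MRPS18C shares 1956 exon bases with ABRAXAS1 on the opposite strand, which rose with each treatment (log2 changes of 0.61, 0.77 and 0.80) at 4.33 TPM on average. MRPL58, a peptidyl-tRNA hydrolase that frees stalled ribosomes and is built into the large subunit, had 72.9, 83.1 and 80.5 TPM with SAHA, 86.8, 75.2 and 83.8 TPM with sonidegib and 70.9, 79.5 and 87.3 TPM with the combination, against 88.7, 103 and 96.8 TPM in control cells. The treated groups overlapped each other below the control libraries. It changed by -0.28, -0.23 and -0.28 with SAHA, sonidegib and the combination, with adjusted p-values of 0.0166, 0.046 and 0.0166, and these calls were lost under several settings.

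Falls made up most of both subunits. Beside the counts below, 26.9%, 29.2% and 34% of all tested genes fell with SAHA, sonidegib and the combination. In the same order 31.8%, 26.1% and 29.7% rose, with all-gene medians of 0.05, -0.02 and -0.02. Of the 51 large subunit genes, 32 fell and 7 rose with SAHA (median -0.43), 42 fell and 1 rose with sonidegib (median -0.49), and 37 fell and 2 rose with the combination (median -0.53). Of the 26 small subunit genes, 18 fell with each treatment, with 1, 2 and 2 rises and medians of -0.51, -0.37 and -0.42 with SAHA, sonidegib and the combination. By descent, as the nomenclature of ribosomal proteins gives it (uL, bL, uS and bS against mL and mS), 31, 36 and 32 of the 46 genes with a bacterial relative fell (medians -0.44, -0.51 and -0.58), and 19, 24 and 23 of the 31 mitochondrion-specific genes (medians -0.37, -0.38 and -0.44), in the same order of treatments. No test of a difference between these classes was made.

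By place in the ribosome, the sets are small and none was tested against the family. With SAHA, sonidegib and the combination, 50, 61 and 56 of the 78 members fell. Among all tested genes, 26.9%, 29.2% and 34% fell and 31.8%, 26.1% and 29.7% rose. The central protuberance (MRPL18, MRPL38, MRPL40, MRPL46, MRPL48 and MRPL58) had 5 of 6 genes lower and none higher with each treatment. This count includes MRPL58, whose calls were lost under several settings. Among the proteins around the peptidyl transferase centre and its tunnel (MRPL2, MRPL3, MRPL4, MRPL16 and MRPL27), 3 of 5 were lower with SAHA and 4 with sonidegib and with the combination, with medians of -0.50, -0.85 and -1.35. MRPL2 was higher with SAHA. The decoding centre and mRNA path (MRPS2, MRPS5, MRPS7, MRPS11, MRPS12 and MRPS24) had 4, 5 and 5 of 6 genes lower and none higher. At the stalk (MRPL10, MRPL11, MRPL12, MRPL53 and MRPL54) 3 of 5 were lower and MRPL10 higher with each treatment, although the call of MRPL10 with SAHA was lost under several other settings. At the polypeptide exit (MRPL22, MRPL23, MRPL24, MRPL44, MRPL45 and MRPL47) 4, 3 and 3 of 6 were lower, and MRPL44 was higher with SAHA and with the combination.

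Adding the second drug lowered some members and raised others, in shares not far from those of all tested genes. The combination against SAHA alone lowered 30 members and raised 16, where 33% of all tested genes fell and 18% rose, with a median of -0.09 for members and -0.12 for all genes. Median-of-ratios scaling, under which the median of all genes in this comparison was 0.00, turned the split of the members to 24 lower and 22 higher. The largest falls were those of MRPL55 (-1.28), MRPL20 (-0.99), MRPS17 (-0.87), MRPL16 (-0.85) and MRPS12 (-0.83), and the largest rises those of MRPS27 (1.60), MRPL42 (0.73), MRPL45 (0.71), MRPS28 (0.68) and MRPS18B (0.63). The combination against sonidegib alone lowered 17 members and raised 13, where 21% of all tested genes fell and 17.5% rose, and 48 members were not called. The median was -0.03 for members and -0.02 for all genes, so the family did not stand apart from all genes here. Here the falls were led by MRPL27 (-0.66), MRPS18B (-0.62), MRPS26 (-0.57), MRPL54 (-0.53) and MRPL9 (-0.47), and the rises by MRPS14 (0.70), MRPL14 (0.53), MRPL33 (0.50), MRPL13 (0.45) and MRPL55 (0.40). MRPL13, the counterpart of uL13, had 60.8, 53.0 and 67.3 TPM with SAHA, 45.0, 39.1 and 45.2 TPM with sonidegib and 54.0, 57.0 and 66.5 TPM with the combination, against 61.2, 61.6 and 68.5 TPM in control cells, so that its sonidegib libraries were the low ones.

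Measured against the same control libraries, the family was lower with both drugs by less than the sum of the separate changes. The interaction, which is the change with the combination less the changes with SAHA and with sonidegib, was called above 0 for 39 of the 78 members and below 0 for 0, where 11.8% of all tested genes were called above and 19.7% below by limma. At an unadjusted p under 0.05 the counts were 47 above and 1 below. The control libraries enter both separate changes, so a shift of these libraries alone would also move the interaction. Such a shift and an effect of the drugs on each other cannot be told apart here. The median interaction was 0.31 for members and -0.07 for all genes. The sum of the separate log2 changes had a median of -0.89, against -0.46 measured for the combination. It lay below the measured change in 70 of 78 members, which restates the sign of the interaction. The interaction was largest for MRPL42 (1.22 ± 0.23 SE, adjusted p = 0.002), MRPL54 (1.21 ± 0.16 SE, adjusted p = 0.000206) and MRPL3 (1.12 ± 0.088 SE, adjusted p = 5.78e-06). The called genes were 24 of 51 in the large subunit and 15 of 26 in the small subunit.

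The effect of SAHA could also be set against its effect on top of sonidegib, as these comparisons share no library. Their difference is the interaction itself, and the same holds for sonidegib. The sizes and overlaps below therefore show the interaction in another form and are no separate support for it. Over the 78 members the log2 changes of SAHA against control and of the combination against sonidegib correlated at 0.74 (0.55 over all genes), as a description across genes that share libraries within each comparison. Of the 50 members that fell with SAHA alone, 17 (34.0%) fell with SAHA on top of sonidegib, which was 100% of the 17 that did so. Over all tested genes these shares were 51.5% and 65.8%. The change was larger in size alone than on top of sonidegib in 65 of 78 members (83.3%), against 67.1% of all genes. In the same way sonidegib against control and the combination against SAHA correlated at 0.73 (0.54 over all genes). Of 61 members that fell with sonidegib alone, 29 (47.5%) fell when it was joined to SAHA, which was 96.7% of the 30 that did so, and 8 (13.1%) were higher. Over all tested genes 65.8% of those that fell alone fell again, which was 58.3% of those that fell with sonidegib on top of SAHA, and 4.1% were higher. The change was larger alone in 58 of 78 members (74.4%), against 53.5% of all genes.

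**Figure D4:**
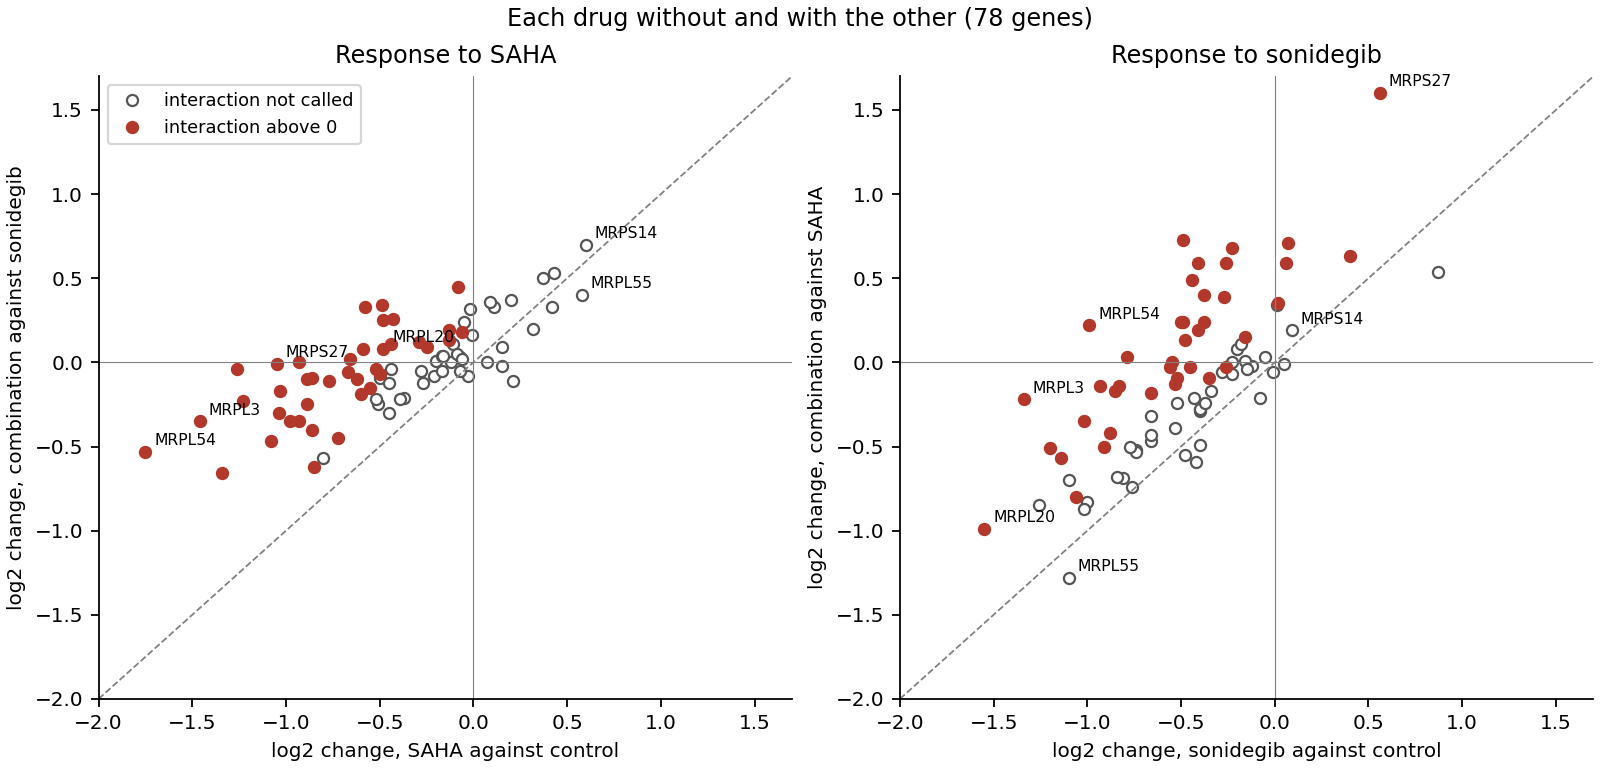
Log2 change of the 78 members under SAHA (left) and sonidegib (right), alone against control on the horizontal axis and on top of the other drug on the vertical axis, with red points for the 39 genes whose interaction was called above 0 and a dashed line where both changes are equal. Most points with a fall on the horizontal axis lie above the line, with the change larger alone in 65 of 78 members for SAHA and 58 of 78 for sonidegib. The vertical distance of a point from the line is its interaction, in either panel.

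The levels of the ribosomal RNAs that these proteins join moved the other way from the mRNAs of the family. MT-RNR2, the 16S rRNA of the large subunit, had 11375, 9957 and 10188 TPM with SAHA, 19197, 22400 and 18300 TPM with sonidegib and 25672, 23027 and 21434 TPM with the combination, against 5249, 4208 and 4667 TPM in control cells. Every treated library was above every control library, and those with sonidegib were highest. The log2 change was 1.16 ± 0.1 (SE, adjusted p = 1.56e-06) with SAHA, 2.08 ± 0.1 (SE, adjusted p = 3.25e-08) with sonidegib, and 2.31 ± 0.1 (SE, adjusted p = 5.41e-09) with the combination. MT-RNR1, the 12S rRNA of the small subunit, had 2126, 1891 and 1704 TPM with SAHA, 2172, 2368 and 2276 TPM with sonidegib and 2942, 2574 and 2634 TPM with the combination, against 1447, 1444 and 1455 TPM in control cells. It rose by 0.39, 0.65 and 0.90 on the log2 scale with SAHA, sonidegib and the combination (adjusted p = 0.000842, 2.24e-05 and 9.49e-07). The sum of both rRNAs over the sum of the 78 genes was 1.79 ± 0.164 under SAHA, 3.72 ± 0.479 under sonidegib and 4.32 ± 0.65 under the combination, against 0.726 ± 0.0804 in control cells (SD, n = 3 each). The 5S genes were also above 0 in the libraries with sonidegib alone and in the combination, so an effect of sonidegib on rRNA and a difference in how rRNA was removed or counted cannot be told apart.

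The mRNAs for the proteins of the cytosolic ribosome, which come from another gene family, did not share the direction with sonidegib. Of 82 cytosolic ribosomal protein genes, 2 rose and 47 fell with SAHA (median -0.19), 52 rose and 5 fell with sonidegib (median 0.19), and 41 rose and 5 fell with the combination (median 0.12). Beside these and the lists that follow, 31.8%, 26.1% and 29.7% of all tested genes rose and 26.9%, 29.2% and 34% fell. Their summed level was 26.5 ± 0.184 times that of the mitochondrial family with SAHA, 40.8 ± 2.89 times with sonidegib and 38.6 ± 3.12 times with the combination, against 24.7 ± 1.08 times in control cells (SD, n = 3 each). The 6 genes often taken as stable references (ACTB, B2M, GAPDH, HPRT1, PPIA and TBP) had median changes of -0.25, -0.28 and -0.36 with SAHA, sonidegib and the combination, with 3, 4 and 4 of 6 lower, beside medians of -0.44, -0.46 and -0.46 for the mitochondrial family.

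**Figure D5:**
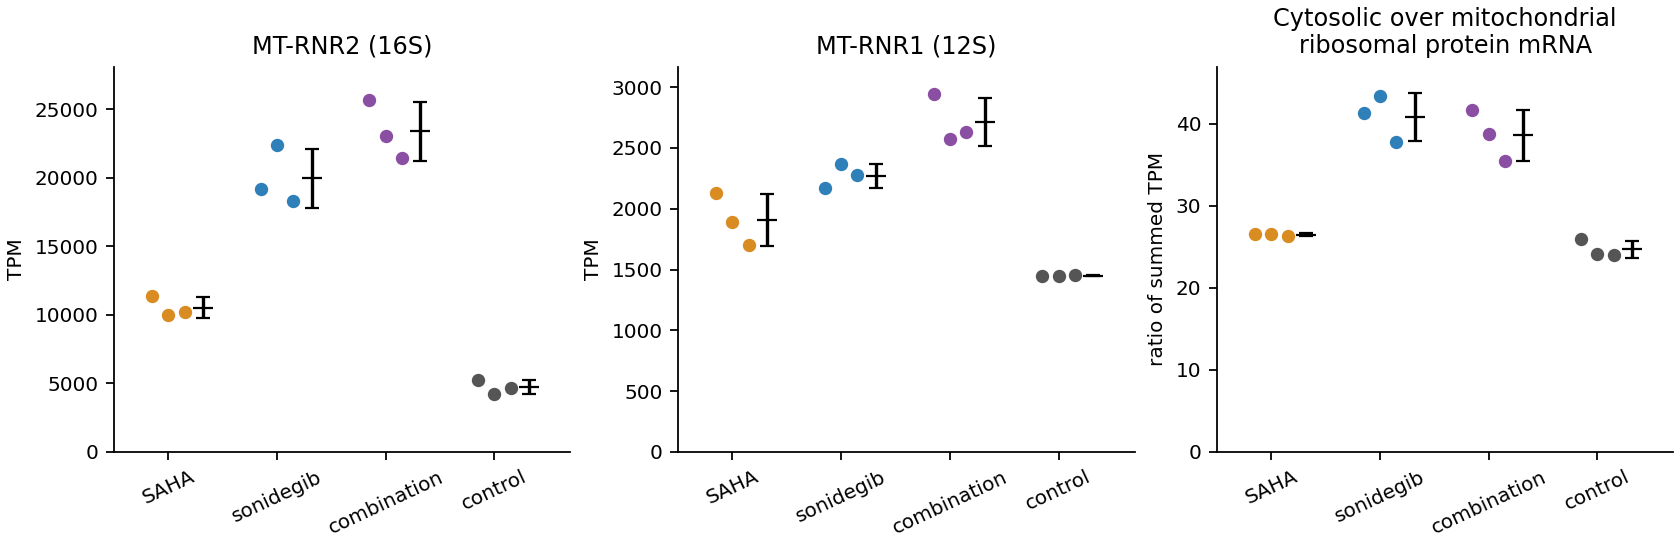
TPM of MT-RNR2 and MT-RNR1 and the ratio of summed cytosolic to summed mitochondrial ribosomal protein TPM, with 1 point per library in the SAHA, sonidegib, combination and control groups and bars for the mean ± SD (n = 3). MT-RNR2 is at 18300 to 25672 TPM in the libraries with sonidegib, against 4208 to 5249 TPM in control cells.

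The genes of 5 mitochondrial ribosomal proteins carry other names. GADD45GIP1 (mL64) changed by -0.75, -0.40 and -0.49 with SAHA, sonidegib and the combination. DAP3, the GTP-binding protein of the small subunit (mS29), rose by 0.39 ± 0.062 (SE, adjusted p = 0.000206) with SAHA, fell with sonidegib (-0.24 ± 0.062 SE, adjusted p = 0.00753) and changed by 0.04 with the combination, which did not pass. PTCD3 changed by -0.16, -0.16 and 0.18 (adjusted p = 0.722, 0.739 and 0.686). Of these genes with AURKAIP1 and CHCHD1, 1 rose and 1 fell with SAHA, 0 rose and 4 fell with sonidegib, and 0 rose and 2 fell with the combination.

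Among 28 genes for assembly of the mitochondrial ribosome and modification of its rRNA, 14 fell under SAHA, 14 under sonidegib and 16 under the combination, and 3, 4 and 5 rose. The shares of all tested genes were 26.9%, 29.2% and 34% lower and 31.8%, 26.1% and 29.7% higher. RCC1L, which takes part in rRNA and large subunit maturation, changed by -1.55, -1.12 and -2.0 with SAHA, sonidegib and the combination. MRM1, a methyltransferase of the 16S rRNA, changed by -1.36, -1.48 and -2.08. In the other direction, MALSU1, which keeps the immature large subunit from joining the small one, rose with SAHA (0.88 ± 0.068 SE, adjusted p = 6.76e-07) and under both drugs (0.58 ± 0.068 SE, adjusted p = 1.79e-05), and NOA1, a GTPase of small subunit assembly, rose with sonidegib (0.90 ± 0.085 SE, adjusted p = 4.5e-06) and under both drugs (0.79 ± 0.085 SE, adjusted p = 7.94e-06).

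Of 20 translation factors, 8, 10 and 7 fell and 3, 3 and 3 rose with SAHA, sonidegib and the combination. Of all tested genes 26.9%, 29.2% and 34% fell and 31.8%, 26.1% and 29.7% rose, so the falls of these factors with the combination were near the all-gene share. GFM2, which recycles ribosomes, rose by 0.88 with SAHA (adjusted p = 1.37e-05), while MRRF, its partner, fell with SAHA (-1.04 ± 0.1 SE, adjusted p = 4.29e-06). TUFM, the elongation factor that delivers tRNAs, changed by -0.05, 0.02 and 0.00, none of which passed. Of 17 mitochondrial aminoacyl-tRNA synthetases, 7, 10 and 12 fell and 3, 0 and 2 rose. Of 23 genes of mitochondrial DNA transcription and RNA processing, 8, 15 and 14 fell and 2, 0 and 1 rose, among them SSBP1, the single-strand DNA-binding protein (-1.53 ± 0.047 SE, adjusted p = 2.26e-09 with sonidegib), and TFAM, the transcription factor that packs the mitochondrial genome (-1.30 ± 0.18 SE, adjusted p = 0.00011 with sonidegib). POLRMT, the mitochondrial RNA polymerase, changed by -0.07, -0.03 and -0.13, none of which passed.

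Of 25 genes of mitochondrial protein import, 13, 17 and 15 fell and 1, 3 and 3 rose with SAHA, sonidegib and the combination. Of 13 chaperones and proteases, 9, 8 and 7 fell and 1, 2 and 2 rose, with HSPE1, the co-chaperone of HSP60, at -0.81, -1.32 and -1.44. Of 79 nuclear genes of the respiratory chain and ATP synthase, 35, 42 and 29 fell and 9, 5 and 14 rose. Among all tested genes 26.9%, 29.2% and 34% fell and 31.8%, 26.1% and 29.7% rose, so the falls of the respiratory chain genes with the combination were near the all-gene share. Under quantile normalization these genes had 21 falls and 22 rises with sonidegib, and 17 falls and 30 rises with the combination (median 0.10). The 13 mRNAs of the mitochondrial genome, which the ribosome translates, rose in 13 of 13 cases with SAHA, while 7 fell and 5 rose with sonidegib and 4 fell and 6 rose with the combination. Under median-of-ratios scaling 7 of them rose with SAHA. MT-CYB changed by -1.62 with sonidegib and -1.29 with the combination, and MT-ND6, on the other strand of the genome, by 0.68, 1.11 and 1.58.

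Among 8 regulators of mitochondrial biogenesis, 1 rose and 3 fell with SAHA, 0 rose and 3 fell with sonidegib, and 0 rose and 5 fell with the combination. All tested genes had 31.8%, 26.1% and 29.7% higher and 26.9%, 29.2% and 34% lower. MYC, a transcription factor that raises ribosome production, was at 37.4 ± 3 TPM with SAHA, 73.7 ± 3.74 TPM with sonidegib and 35.6 ± 2.1 TPM with the combination, against 92.7 ± 11.2 TPM in control cells (SD, n = 3 each), with log2 changes of -1.28 ± 0.091 (SE, adjusted p = 3.48e-07), -0.32 ± 0.091 (SE, adjusted p = 0.0111) and -1.35 ± 0.091 (SE, adjusted p = 1.79e-07). PPRC1, a coactivator of the PGC-1 family, changed by -1.15, -0.33 and -1.01, all called. GABPB1, a partner of the ETS factor GABPA, fell with the combination (-1.05 ± 0.11 SE, adjusted p = 8.31e-06), and GABPA changed by -0.13, -0.15 and -0.17, none of which passed. NRF1 rose with SAHA (0.39 ± 0.13 SE, adjusted p = 0.0239), fell with the combination (-0.54 ± 0.13 SE, adjusted p = 0.00408), and changed by -0.18 with sonidegib, which did not pass. YY1 changed by -0.46, -0.25 and 0.01, with adjusted p-values of 0.000796, 0.03 and 0.901. Members whose promoter window held the ETS core had median changes of -0.27, -0.48 and -0.46 with SAHA, sonidegib and the combination, and those without it -0.45, -0.45 and -0.59. For the YY1 core the medians were -0.46, -0.39 and -0.33 with it, and -0.43, -0.45 and -0.62 without it.

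Over the 12 libraries a member correlated with the mean of the others at a median Pearson r of 0.75, where the points share groups and libraries. The 6 members below 0 were MRPL10 (-0.80), MRPS14 (-0.53), MRPL53 (-0.46), MRPS27 (-0.22), MRPL2 (-0.15) and MRPL44 (-0.11). Outside the family, the genes whose levels were most like the mean of the members were MSH6 (r of 0.987), C8orf33 (0.986), NME1-NME2 (0.986), PTGES3 (0.985) and VDAC1 (0.983). VDAC1, the channel of the outer mitochondrial membrane, averaged 236 TPM with SAHA, 230 TPM with sonidegib and 224 TPM with the combination, against 321 TPM in control cells. Across members the change had little relation to the level in control cells, with r of 0.07, -0.18 and -0.15 for SAHA, sonidegib and the combination (n = 78 genes, which share libraries).

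Genes that overlap others or have near copies were set apart, since reads can be divided between them. Of the members, 46 shared no exon base with another gene at 1 TPM or more, and of these 30 fell and 5 rose with SAHA, 37 fell and 2 rose with sonidegib, and 35 fell and 2 rose with the combination. The annotation names 75 processed copies for 34 members, and of these 34 genes 23, 25 and 26 fell and 1, 1 and 0 rose. MRPS21 has 8 such copies, the most of any member. A protein-coding gene lies head to head within 1000 bases of 18 members. In the 13 such pairs of a member with a tested gene outside the family, 9, 13 and 11 members fell with SAHA, sonidegib and the combination, against 4, 4 and 5 of their neighbours, while 4, 0 and 4 neighbours rose. The neighbours fell in about the share of all tested genes, which was 26.9%, 29.2% and 34%, and 31.8%, 26.1% and 29.7% of all genes rose. MRPL46 and MRPS11, whose starts lie 34 bases apart, were both lower with each treatment, at -0.51 and -0.29 with SAHA, -0.77 and -0.91 with sonidegib, and -1.02 and -0.79 with the combination. MRPL18 and TCP1, a subunit of the cytosolic chaperonin, start 63 bases apart, and with SAHA MRPL18 fell (-0.43) while TCP1 rose (0.24).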

How the data were processed

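The 12 libraries of MDA-MB-468 cells came as 1 deposited table of TPM per gene. The submitters' processing notes name Bowtie2 2.4.1 and GRCh38. The quantifier, its annotation release and its use of strand are not given in the sources used here. TPM keep no read counts, so the depth per library is unknown. Gene IDs were matched to GENCODE 29 (58611 matched, 713 did not).

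Values were taken as log2(TPM + 1) for 13937 genes (mean TPM of 1 or more) and fitted over all 4 groups with limma 3.58.1 in R 4.3.3 (intensity trend, 8 residual degrees of freedom, tested on simulated data). The 6 comparisons were two-sided with Benjamini-Hochberg adjustment over all tested genes, at 0.05. The alternatives were other pseudocounts, level filters, scalings and fits, and leaving out each library. The members and gene lists were chosen with earlier results of these data known. Named members were the 5 largest called changes in each direction per comparison, without overlap between libraries (for the interaction, the 3 largest above 0), the 5 most abundant, and MRPL12, MRPS12, MRPL44, MRPL45, MRPL58 and the MRPS18 genes, and others are given where they complete a count. Promoter windows came from RefSeq (GRCh38.p14), and both strands were searched for exact matches.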

Additional observations from a re-analysis of the deposited data

Results flagged for a closer look

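The change made by SAHA differed between cells without and with sonidegib for 39 of the 78 members by the interaction test of limma, with the value on top of sonidegib less negative, or more positive, in each of them. A shift of the control libraries alone cannot be told apart from this difference. Among the members described above the interaction, on the log2(TPM + 1) scale, was 1.22 for MRPL42, 1.21 for MRPL54, 1.12 for MRPL3, 1.05 for MRPS27 and 1.0 for MRPL1. It was 0.90 for MRPS28, 0.69 for MRPL18, 0.67 for MRPL27, 0.66 for MRPL12, 0.64 for MRPL45 and 0.60 for MRPL9. It was 0.58 for MRPL15, 0.57 for MRPL20, 0.53 for MRPL13, 0.42 for MRPS15, and 0.24 for both MRPS18B and MRPS24. With 3 libraries in a group, single libraries were not screened as outliers.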

How the results depend on the processing

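Counts of falling members against control stayed within 1.5 times of those reported under every alternative run. Those that moved further were rises with SAHA (5 under median-of-ratios scaling, against 8), rises with sonidegib (7 under quantile normalization, against 3), rises with the combination (15 under quantile normalization and 7 with nuclear protein-coding genes only, against 4), rises of the combination against SAHA (35 under quantile normalization, against 16) and interactions below 0 (1 with a mean of at least 5 TPM and 1 with nuclear protein-coding genes only, against 0). The median of the combination against SAHA (-0.09) turned to 0.05, 0.05 and 0.08 under median-of-ratios, 75th percentile and quantile scaling, and its members split into 24 higher and 24 lower at the 75th percentile. All genes split there into 3589 higher and 3644 lower under median-of-ratios scaling, against 2506 and 4594, and in the interaction into 2581 and 2252, against 1642 and 2739. The sign turned for MRPS12 with SAHA (0.04 with nuclear protein-coding genes only), for MRPS24 with the combination (0.15 under quantile normalization) and for MRPL41 with the combination (0.00 at the 75th percentile, 0.20 under quantile normalization). Leaving out 1 library gave MRPS12 with SAHA -0.06 to 0.02, MRPS18A with the combination -0.02 to 0.09 and MRPS14 with sonidegib -0.00 to 0.17. The cause of these shifts was not tested.

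Without 1 library at a time, rises and falls numbered 5 to 8 and 45 to 50 with SAHA (lowest rise count without control replicate 1), 3 to 3 and 53 to 61 with sonidegib, 4 to 4 and 50 to 58 with the combination, 14 to 17 and 25 to 33 for the combination against SAHA, 11 to 16 and 12 to 18 against sonidegib, and 37 to 43 above and 0 to 1 below for the interaction, where the 1 came without control, sonidegib or combination replicate 3. Same-numbered libraries did not deviate together (r of -0.06 to 0.11 over 18 pairs). Such correlations cannot exclude a shared culture or day, so whether the numbers pair the libraries is not known. With the replicate number as a block, 4562 of all tested genes rose and 3879 fell with SAHA, against 4430 and 3746 without it. The replicate block gave 7 rises and 49 falls with SAHA, 3 and 61 with sonidegib, 4 and 57 with the combination, 18 and 33 against SAHA, 17 and 18 against sonidegib, and an interaction of 43 above and 0 below. The fit of the compared groups only could not be made for the interaction. As TPM keep no depth, no limit from read counts can be given.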
